A study of Mus musculus with 9 samples.

Results

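Complement components and regulators were examined in BV2 microglia, as 9 genes of the 40993 in the deposited expression table: C1qa, C1qb, C1qc, C3, C4b, Cfb, Cfp, Cd55 and Serping1. They were taken by gene name, and the names were chosen by the expression values (FPKM) of these same 9 libraries in earlier results, so that the differences of the 9 genes between groups are descriptions: their standard errors, intervals and counts past a threshold come from the fit over all genes, and no p-value is given for them or read as support. BV2 is an immortalized mouse microglial line, and all groups came from this 1 line. Sequenced RNA came from control cells that were not treated (3 libraries), cells given MNPs@SiO2(RITC) at 10 µg/ml (3 libraries) and cells given 100 µg/ml (3 libraries). The particles have a core of cobalt ferrite and a silica coat loaded with rhodamine B isothiocyanate, and treatment lasted 12 h. The sources used here do not say whether the 3 libraries of a group came from separate cultures, so each spread and p-value covers only the variation between these libraries, which may be technical.

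Complement is a cascade of serum and cell-made proteins that marks particles, microbes and cell debris for uptake. The classical arm starts with C1q, which binds its target and carries the proteases C1r and C1s. These cut C4 and C2, and the cascade then converges on C3, whose fragments coat the target and are read by receptors on phagocytes. The alternative arm amplifies this step through factor B (Cfb), with properdin (Cfp) as the stabilizer of its convertase. Decay-accelerating factor (Cd55) and C1 inhibitor (Serping1) hold the cascade back. In the brain, microglia are the main makers of C1q, and C1q and C3 are known for tagging synapses that microglia remove.

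The genes of the 3 C1q chains lie side by side on chromosome 4 within 18675 bp (4:136880129-136898803 in GRCm38, all on the minus strand), in the order C1qb, C1qc and C1qa. C4b and Cfb lie on chromosome 17 in the MHC class III region, beside C4a and C2. Promoter sequence was matched for 5 of the 9 genes. The upstream stretches of C1qb, C1qc and C3 are shown because these genes were lower in 100 µg/ml MNPs@SiO2(RITC)-treated cells. They come from RefSeq on GRCm38.p6, read 5′ to 3′ on the minus strand, and end at the base before the annotated start (for C1qc, the start in the deposited table, which lies upstream of that in RefSeq), C1qb at chr4:136886201-136886450, C1qc at chr4:136893066-136893164 and C3 at chr17:57228137-57228386. Capitals mark matches to motifs described after the sequences.
C1qb: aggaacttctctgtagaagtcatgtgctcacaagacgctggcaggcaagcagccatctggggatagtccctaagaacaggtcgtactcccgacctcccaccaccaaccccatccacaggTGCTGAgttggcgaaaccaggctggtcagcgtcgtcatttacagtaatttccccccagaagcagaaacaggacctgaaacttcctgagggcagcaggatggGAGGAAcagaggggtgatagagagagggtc
C1qc: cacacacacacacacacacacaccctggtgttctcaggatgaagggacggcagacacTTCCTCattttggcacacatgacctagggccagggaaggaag
C3: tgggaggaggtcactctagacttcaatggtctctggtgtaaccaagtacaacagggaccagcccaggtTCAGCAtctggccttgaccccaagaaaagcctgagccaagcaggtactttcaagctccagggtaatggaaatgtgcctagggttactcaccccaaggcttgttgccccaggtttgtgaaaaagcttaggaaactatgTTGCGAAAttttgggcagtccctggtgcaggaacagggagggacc
The motifs, searched on both strands in windows of 300 bases that run from 250 bases before the start to 50 bases after it, were the MAF core TGCTGA, the PU.1 core GAGGAA, the C/EBP type TTGCNNAA, the NF-kB type GGGNNTTCC and the AP-1 type TGACTCA. Matches for different motifs did not overlap in these windows. The C1qb window held the MAF core and the PU.1 core, both as read here. The C1qc window held the PU.1 core on the opposite strand, and the C3 window held the MAF core on the opposite strand and a C/EBP type match. The 300-base window of Cfp held 2 PU.1 cores after its start, and that of Cd55, which was listed at 0 in every library, held 2 MAF cores and an NF-kB type match. Of all 32851 promoter windows of this length, 19.5% held the MAF core, 28.3% the PU.1 core, 10.8% the C/EBP type, 5.82% the NF-kB type and 5.2% the AP-1 type, so these letters are common and the matches are a description of the sequence alone.

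Levels are given as FPKM, in which the fragments of a gene are divided by its transcript length and by the mapped fragments of the library, so that genes of different length can be set side by side. The file holds no counts. From the steps between low values, the depth was estimated at 12.3 to 15.1 M (mega) fragments per library. The test took every gene whose values averaged 1 FPKM or more, which were 11161 genes and 5 of the 9 complement genes (C1qa, C1qb, C1qc, C3 and Cfp). Of 11 markers of microglia and macrophages, 9 reached this level, whereas the homeostatic microglia markers Cx3cr1 and P2ry12 stayed at or below 0.0773 and 0.146 FPKM. The matched neuron markers were listed at 0, the summed astrocyte, oligodendrocyte and fibroblast markers reached at most 0.980, 1.44 and 0.0110 FPKM, and the endothelial markers summed to 61.4 to 75.0 FPKM through Kdr. The first library at 100 µg/ml stood apart from the others: its transcripts over 4000 nt (3344 genes) were lower against those under 1500 nt (1407 genes) by a median log2 difference of -0.37, where the other 8 libraries lay between -0.12 and 0.17. The differences from control at 100 µg/ml are therefore given with and without it for the C1q chains, C3, Cfp, C3ar1, Itgb2, Itgam and Cd59a. The same holds for Maf, Rela, Emr1, Marco and Saa3.

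C1qb and C1qc, which encode chains of the recognition protein of the classical arm, were the most abundant of the 9 genes. C1qb had a mean of 195.3 ± 7.30 FPKM (SD, n = 3) in control cells and ranked 392 among the 11161 genes tested. C1qc was at 83.3 ± 4.86 FPKM (rank 1185) and C1qa at 7.63 ± 0.721 FPKM (rank 8111). C3 was at 31.3 ± 1.39 FPKM and Cfp at 12.0 ± 0.537 FPKM, whereas C4b, Cfb and Serping1 were below 1 FPKM in every library. Thus the chains that make up the same protein differed widely in level per length.

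**Figure D1:**
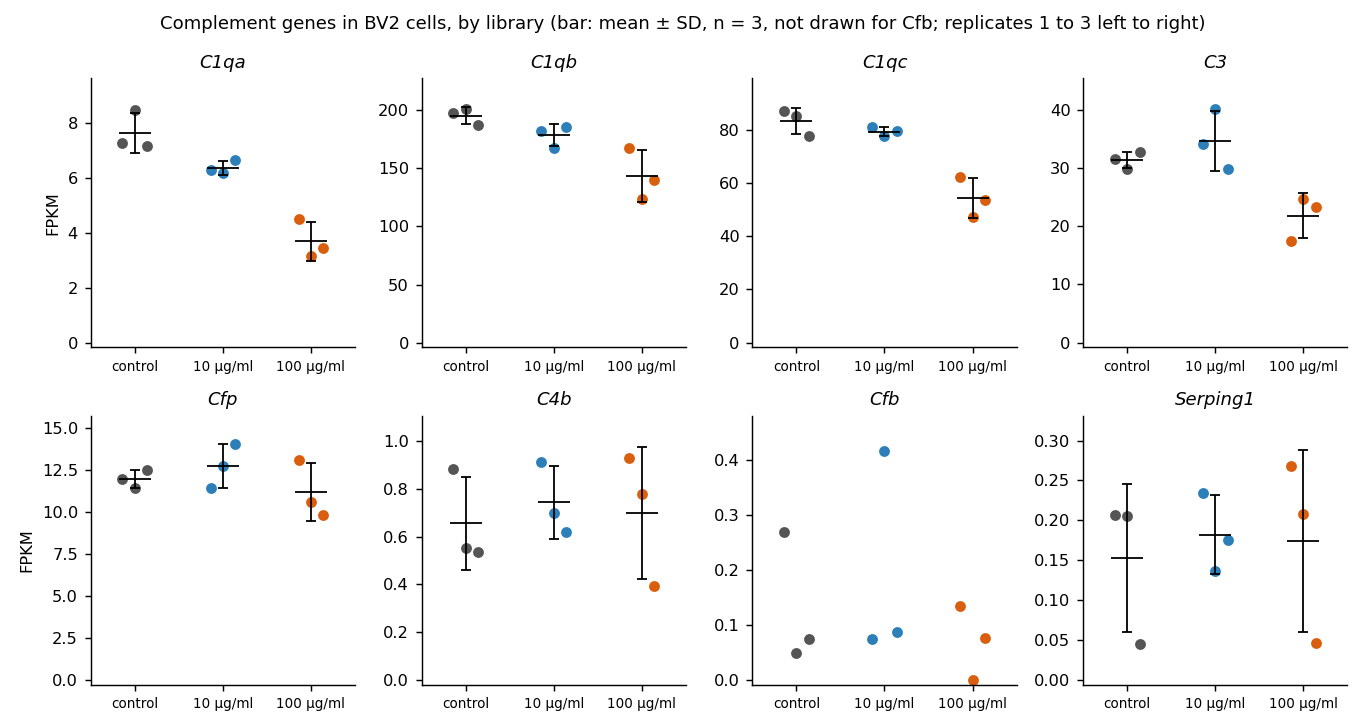
FPKM of 8 complement genes in each of the 9 libraries (points; horizontal axis, group; vertical axis, FPKM from 0), with the mean ± SD of 3 libraries as bars except for Cfb. C1qa, C1qb, C1qc and C3 are lower in all 3 libraries at 100 µg/ml than in any control library, and the other 4 genes overlap between groups.

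C1qa, C1qb and C1qc encode the A, B and C chains of C1q. C1qa was at 7.27, 8.46 and 7.17 FPKM in the control libraries, 6.27, 6.18 and 6.65 FPKM at 10 µg/ml and 4.49, 3.14 and 3.46 FPKM at 100 µg/ml. The groups did not overlap in any pair, and the mean at 100 µg/ml (3.70 ± 0.707 FPKM) was 0.484 times that of control cells. C1qb was at 197.6, 201.2 and 187.2 FPKM in control cells, 182.3, 167.6 and 185.4 FPKM at 10 µg/ml and 167.7, 123.6 and 139.6 FPKM at 100 µg/ml. Both treated groups lay below the control libraries, while the 2 doses overlapped through the first library at 100 µg/ml. C1qc was at 86.9, 85.3 and 77.8 FPKM in control cells, 80.9, 77.6 and 79.4 FPKM at 10 µg/ml and 62.2, 47.2 and 53.6 FPKM at 100 µg/ml. The libraries at 100 µg/ml were below all others, and those of control cells and 10 µg/ml overlapped. The mean of C1qb at 100 µg/ml was 0.735 times and that of C1qc 0.653 times the control mean.

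On the scale of the fit, log2(FPKM + 1), the difference between 100 µg/ml and control was -0.89 for C1qa (SE 0.11, 95% interval -1.14 to -0.63), -0.61 for C1qc (SE 0.09, -0.82 to -0.41) and -0.45 for C1qb (SE 0.10, -0.68 to -0.22). The added 1 compresses the difference of C1qa, which was -1.04 with a pseudocount of 0.1 and -1.06 with 0.01. Without the first library at 100 µg/ml, which was the highest of its group for all 3 chains, the differences were -1.004, -0.71 and -0.57 in the same order. After a loess correction for transcript length, chosen after the data were seen, they were -0.86, -0.61 and -0.44. C1qa also rested on few fragments, an estimated 40.1 to 124.1 per library, against 698.9 to 3087 for C1qb and C1qc.

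The chains did not differ by the same factor. The ratio of C1qb to C1qa FPKM was 27.2, 23.8 and 26.1 in control cells, 29.1, 27.1 and 27.9 at 10 µg/ml and 37.3, 39.4 and 40.4 at 100 µg/ml. All 3 libraries at 100 µg/ml were above the other 6, and control and 10 µg/ml overlapped. The means were 25.7 ± 1.75, 28.0 ± 0.976 and 39.0 ± 1.54 (SD, n = 3). The share of C1qa in the summed FPKM of the 3 chains was 2.67% ± 0.191 in control cells, 2.41% ± 0.0726 at 10 µg/ml and 1.83% ± 0.0809 at 100 µg/ml. The ratio of C1qb to C1qc moved less, from 2.35 ± 0.0671 in control cells to 2.25 ± 0.0879 and 2.64 ± 0.0499. The transcripts are of like length (C1qa 1040 nt, C1qb 1088 nt and C1qc 1203 nt), and the first library at 100 µg/ml, with ratios of 37.3 and 2.69, lay with the other 2 of its group (39.4 and 40.4, and 2.62 and 2.60). The summed FPKM of the chains was 286.3 ± 12.4 in control cells, 264.1 ± 11.03 at 10 µg/ml and 201.7 ± 30.5 at 100 µg/ml.

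**Figure D2:**
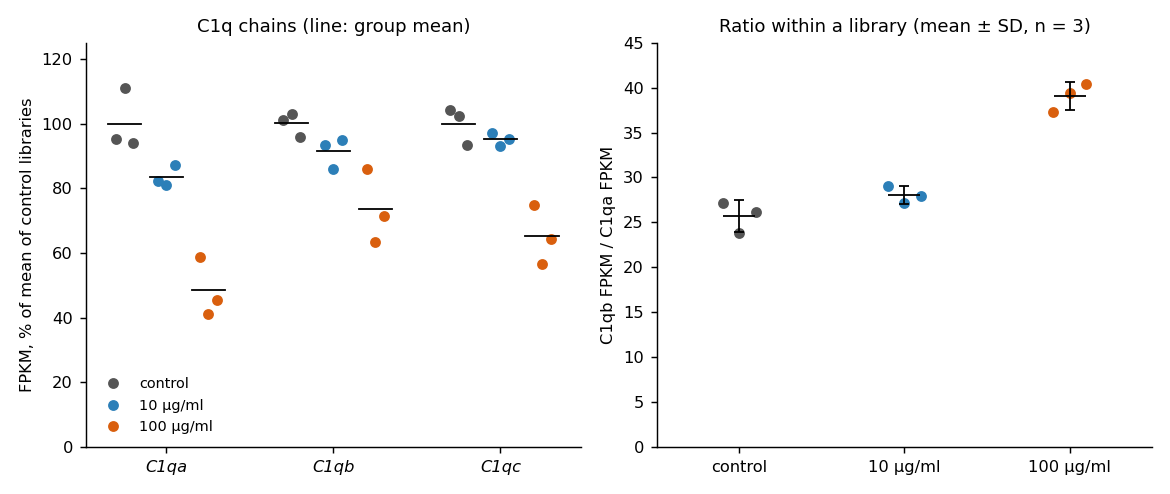
Left, FPKM of each C1q chain as a percentage of its mean in the control libraries (points, libraries; lines, group means); right, the ratio of C1qb to C1qa FPKM within each library with mean ± SD (n = 3). At 100 µg/ml C1qa lies furthest below its control level, and the ratio is 37.3 to 40.4 against 23.8 to 29.1 in the other 6 libraries.

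C3 is the central component, cut by the convertases of every arm, and microglia make it upon activation. C3 was at 31.5, 29.9 and 32.6 FPKM in control cells, 34.1, 40.1 and 29.8 FPKM at 10 µg/ml and 17.5, 24.7 and 23.2 FPKM at 100 µg/ml. The libraries at 100 µg/ml were below all others, and those at 10 µg/ml spanned the control libraries. The mean at 100 µg/ml (21.8 ± 3.81 FPKM) was 0.695 times that of control cells, a log2 difference of -0.52 (SE 0.14, 95% interval -0.83 to -0.21). The lowest C3 value came from the first library at 100 µg/ml. C3 has a transcript of 5136 nt, in the length class that is low in this library. Without it the log2 difference was -0.37, and with the length correction it was -0.50. C3 and the C1q chains ordered the 3 libraries at 100 µg/ml in opposite ways, shown in the plot against the length difference. Whether transcript length accounts for this order was not tested.

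**Figure D3:**
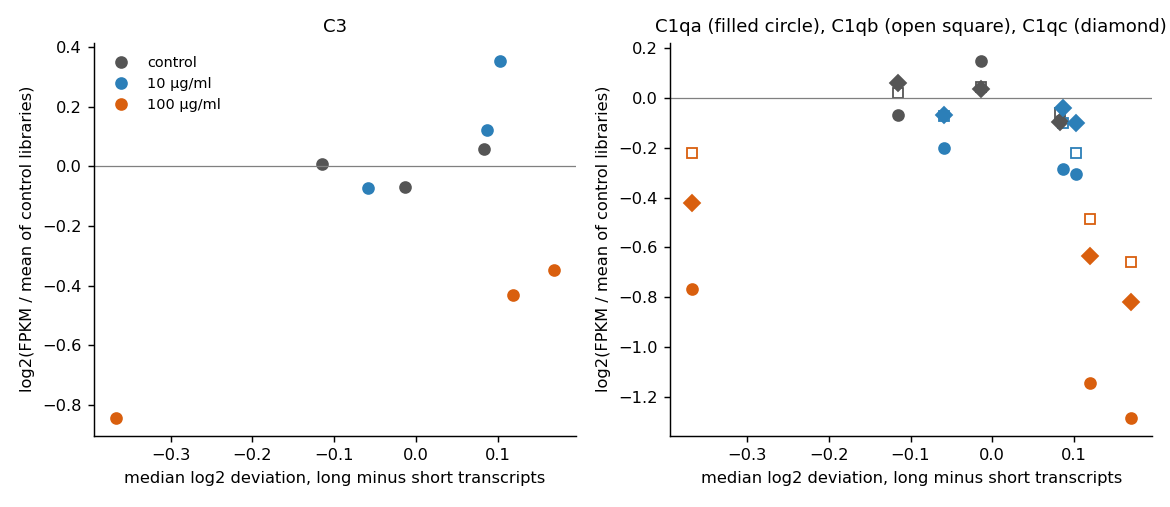
For each library, the median log2 deviation of long transcripts minus that of short transcripts (horizontal axis) and the level of C3 (left) and of the C1q chains (right) as log2 of FPKM over the control mean (vertical axis; colours, groups). The library at -0.37 on the horizontal axis is the first at 100 µg/ml, where C3 is at its lowest and each C1q chain is the highest of the 3 libraries of that group.

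Properdin, encoded by Cfp, stabilizes the C3 convertase of the alternative arm. Cfp was at 12.0, 11.4 and 12.5 FPKM in control cells, 11.5, 12.8 and 14.1 FPKM at 10 µg/ml and 13.1, 10.6 and 9.86 FPKM at 100 µg/ml. The groups overlapped in each comparison. The log2 difference at 100 µg/ml was -0.10 (SE 0.11), with an interval of -0.34 to 0.15, and at 10 µg/ml it was 0.08 (SE 0.11, -0.16 to 0.33). Single libraries moved these values: the first was -0.21 without the first library at 100 µg/ml, -0.07 without the second and -0.02 without the third, and that at 10 µg/ml was 0.15 without the first library of its group, 0.02 without the third and 0.05 without the second control library.

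C4b, Cfb and Serping1 did not reach the level needed for the test. C4b, which encodes the C4 cut by the classical arm, was at 0.881, 0.553 and 0.536 FPKM in control cells, 0.913, 0.698 and 0.619 FPKM at 10 µg/ml and 0.928, 0.779 and 0.394 FPKM at 100 µg/ml, an estimated 28.5 to 75.4 fragments. The groups overlapped, and 35.2% of the 50-base windows of its transcript also occur in the paralog C4a, so that reads of the 2 genes can be hard to assign. Serping1, which encodes the inhibitor of C1r and C1s, was at 0.207, 0.206 and 0.0455 FPKM in control cells, 0.235, 0.137 and 0.175 FPKM at 10 µg/ml and 0.268, 0.208 and 0.0470 FPKM at 100 µg/ml. This was an estimated 1.1 to 7.2 fragments per library, too few for a difference to be seen. Cfb, the protease of the alternative convertase, was at 0.268, 0.0492 and 0.0748 FPKM in control cells, 0.0745, 0.415 and 0.0873 FPKM at 10 µg/ml and 0.134, 0 and 0.0770 FPKM at 100 µg/ml. It rested on at most an estimated 15.7 fragments, and 81.4% of its 50-base windows are shared with the overlapping read-through locus Gm20547 (17:34856412-34882042), whose highest value was 5.53e-08 FPKM, so the level of Cfb is uncertain. Cd55 was listed at 0 in all 9 libraries, as was its paralog Cd55b (Daf2 in the table). A 0 in this table can be a failed estimate, since 9 genes above 1000 FPKM in a library were at 0 in another.

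The comparison of 100 µg/ml with control asked which genes differed at the higher dose. Over all 11161 genes, 2.11% passed an adjusted p of 0.05 and 1.41% did so with lower values in treated cells. Of the 5 complement genes tested, 2 passed, C1qa and C1qc, both lower. The libraries of the groups did not overlap for 23.8% of all genes, 11.4% with lower values in treated cells, and for 4 of the 5 complement genes (all lower). Nothing is read from these counts, because the genes were chosen with the values known. The 2 calls depended on single libraries: no gene of the 5 passed without the second control library, 1 passed (C1qa) without the first control library or the third at 100 µg/ml, and 3 passed (C1qb added) without the first at 100 µg/ml.

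At 10 µg/ml, compared with the same control libraries, no gene of the 11161 tested passed an adjusted p of 0.05 (0%), and 3.28% passed an unadjusted p of 0.05. None of the 5 complement genes passed either threshold. The libraries of the groups did not overlap for 10.7% of all genes, and for 2 of the 5 complement genes, C1qa and C1qb, both lower at 10 µg/ml. Their mean levels were 0.834 and 0.914 times those of control cells, with log2 differences of -0.23 (SE 0.11, 95% interval -0.48 to 0.03) and -0.13 (SE 0.10, -0.36 to 0.10). C1qc was at -0.07 (SE 0.09) and C3 at 0.13 (SE 0.14). The intervals include 0 and reach -0.48 for C1qa and 0.44 for C3, so equal levels at 10 µg/ml were not shown.

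Between the doses, 0.851% of all genes passed an adjusted p of 0.05, 0.636% with lower values at 100 µg/ml, and 2 of the 5 complement genes did so, again C1qa at -0.66 (SE 0.11) and C1qc at -0.55 (SE 0.09). C3 was at -0.65 (SE 0.14), C1qb at -0.32 (SE 0.10) and Cfp at -0.18 (SE 0.11). The libraries did not overlap for 19.4% of all genes and for 3 of the 5 (C1qa, C1qc and C3). The 2 calls were not made in any fit without a control library, without a library at 10 µg/ml, or without the second or the third at 100 µg/ml, and 3 genes passed without the first at 100 µg/ml, where C1qa was at -0.78, C1qc at -0.65, C3 at -0.51, C1qb at -0.44 and Cfp at -0.29.

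**Figure D4:**
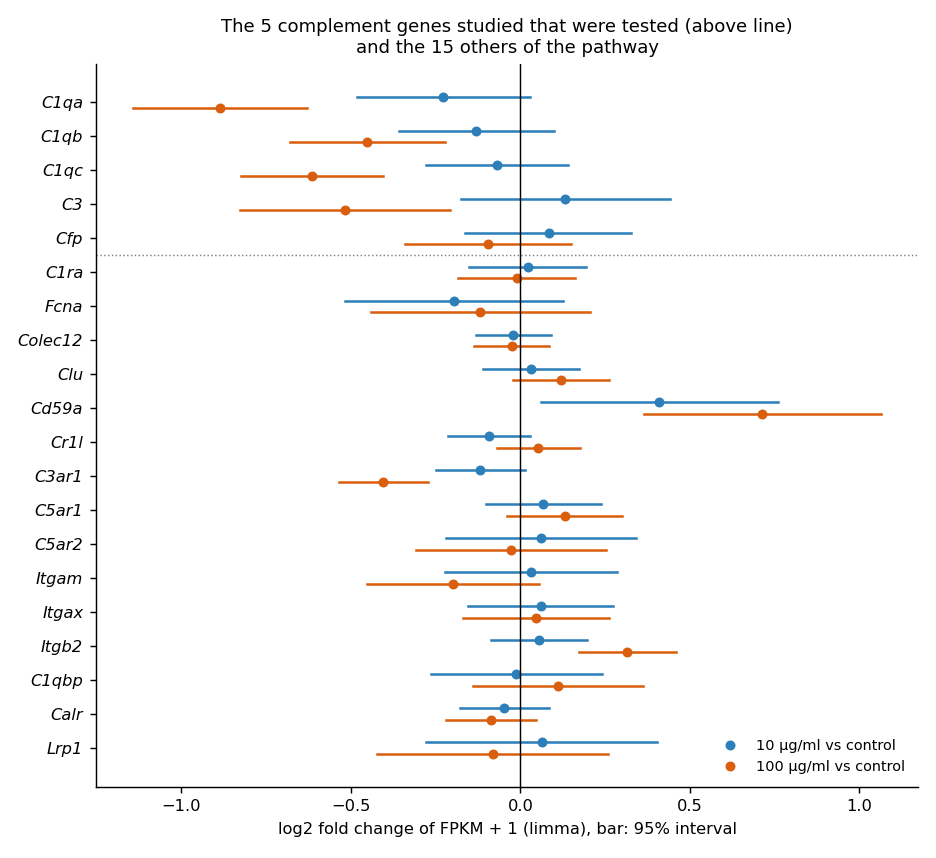
Log2 fold changes of FPKM + 1 from limma (points) with 95% intervals (bars) at 10 and 100 µg/ml against the same control libraries, for the 5 complement genes studied that were tested (above the dotted line) and the 15 other complement genes tested. At 100 µg/ml the intervals of C1qa, C1qb, C1qc and C3 lie below 0, as does that of C3ar1, and those of Cd59a and Itgb2 lie above 0.

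The rest of the pathway was taken from a list of 50 other complement genes, of which all were matched, 35 were below 1 FPKM on average (13 of them listed at 0 in every library) and 15 were tested. This list was also chosen with earlier results of these data known, so its calls and p-values are descriptions. At 100 µg/ml 2 of the 15 passed the adjusted test, 1 higher and 1 lower, beside 2.11% of all genes, and the median log2 difference was -0.01, beside 0 over all genes. C3ar1, the receptor for the C3 fragment C3a, fell from 101.3 ± 2.84 to 76.4 ± 5.002 FPKM (log2 difference -0.40, SE 0.06, adjusted p = 0.0135). It was at 103.4, 102.4 and 98.0 FPKM in control cells, 96.1, 92.9 and 90.7 FPKM at 10 µg/ml and 70.6, 79.7 and 78.8 FPKM at 100 µg/ml, so that the 3 groups did not overlap. C3, chosen with its values known, was also lower in the libraries at 100 µg/ml, and a link between it and C3ar1 was not tested. Itgb2, the beta chain of complement receptor CR3, rose from 48.5 ± 2.06 to 60.6 ± 1.31 FPKM (log2 difference 0.32, SE 0.06, adjusted p = 0.0402), while its partner Itgam was at 57.9, 63.0 and 64.6 FPKM in control cells and 43.6, 58.5 and 60.7 FPKM at 100 µg/ml. The low value of Itgam came from the first library at 100 µg/ml, and its log2 difference was -0.20 (SE 0.11) with that library and -0.05 (SE 0.05) without it. Without the first library at 100 µg/ml, the log2 differences were -0.35 for C3ar1 and 0.31 for Itgb2. The call of C3ar1 was lost without the first or the second control library (adjusted p = 0.0661 and 0.0775). That of Itgb2 was lost without any 1 of the control libraries (adjusted p 0.0993 to 0.154), the first or the third at 10 µg/ml (0.0628 and 0.0663) or the second or the third at 100 µg/ml (0.0758 and 0.123).

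By role, 1 of 6 classical proteases was tested (C1ra, 4.74 ± 0.0160 FPKM in control cells and 4.70 ± 0.326 FPKM at 100 µg/ml), 2 of 9 lectin pathway genes (led by the scavenger collectin Colec12, 100.4 ± 3.71 and 98.5 ± 3.02 FPKM) and none of 7 terminal components. Factor D (Cfd), which cuts factor B, was listed at 0. Thus no component of the membrane attack complex reached the level needed for the test. Of the receptors of complement fragments, 6 of 8 were tested, and the C5a receptor C5ar1 was at 36.8 ± 0.988 and 40.4 ± 0.512 FPKM. Clusterin (Clu), a fluid-phase inhibitor of the terminal complex, led 5 fluid-phase regulators at 113.3 ± 3.97 and 123.3 ± 8.98 FPKM. Cr1l (Crry), which limits C3 deposition on mouse cells, led 7 membrane regulators at 16.4 ± 0.613 and 17.04 ± 0.338 FPKM. Calreticulin (Calr), a C1q-binding chaperone, led 6 C1q-binding proteins at 649.9 ± 19.8 and 612.6 ± 35.9 FPKM.

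**Figure D5:**
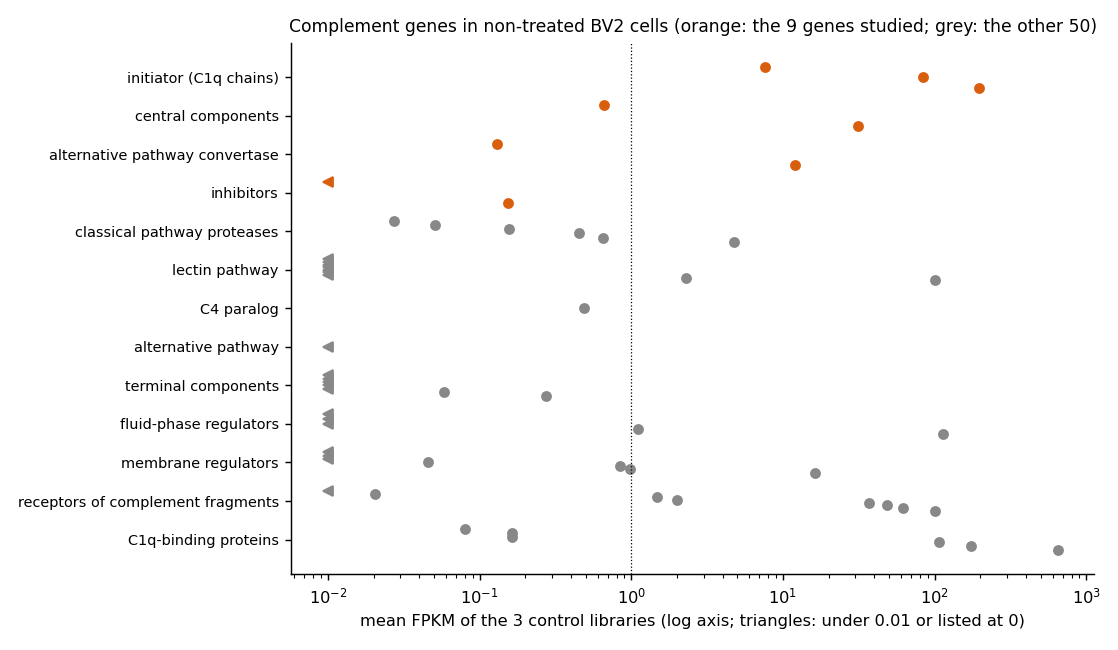
Mean FPKM of the 3 control libraries (log axis) for the 9 complement genes studied (orange) and the 50 others of the pathway (grey), by role; triangles mark genes below 0.01 FPKM or listed at 0, and the dotted line is 1 FPKM. The C1q chains, C3, Cfp, 6 of 8 receptors and 3 of 6 C1q-binding proteins lie above the line, and the 7 terminal components lie below it.

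The membrane regulator Cd59a, which blocks the terminal complex, missed the threshold and was named after its values were seen. Its mean in control cells (0.979 FPKM) was below the level needed for the test, and it entered the test only through its higher values in treated cells, so its p-values give no support. It was at 1.10, 1.06 and 0.779 FPKM in control cells, 1.75, 1.65 and 1.48 FPKM at 10 µg/ml and 2.97, 2.14 and 1.72 FPKM at 100 µg/ml. Both treated groups were above the control libraries, with log2 differences of 0.41 (SE 0.15, adjusted p = 1) and 0.71 (SE 0.15, adjusted p = 0.0551). Without the first library at 100 µg/ml, the highest, the second was 0.57 (SE 0.13).

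Transcription factors linked to complement genes were described from a list of 11, of which 10 were matched and tested. That list, too, was chosen with earlier results of these data known, so its calls and p-values are descriptions. Maf, a factor of macrophage identity, was at 30.4, 30.5 and 32.1 FPKM in control cells, 32.7, 33.1 and 29.2 FPKM at 10 µg/ml and 22.2, 22.4 and 20.5 FPKM at 100 µg/ml. It was lower at 100 µg/ml than in control cells (log2 difference -0.50, SE 0.06, adjusted p = 0.00962) and than at 10 µg/ml (-0.52, SE 0.06, adjusted p = 0.0138). Rela, the p65 subunit of NF-kB, rose from 21.3 ± 0.759 to 25.8 ± 0.420 FPKM (log2 difference 0.27, SE 0.05, adjusted p = 0.037). Spi1, which encodes PU.1, was the most abundant of the list, at 136.4 ± 1.98 and 134.0 ± 7.29 FPKM. Of the 10 factors, 2 passed at 100 µg/ml against control (1 higher), beside 2.11% of all genes, and the median log2 difference of the 10 was -0.14, beside 0 over all genes. Without the first library at 100 µg/ml, the log2 differences from control were -0.51 for Maf and 0.25 for Rela. The call of Maf against control was lost without the second control library (adjusted p = 0.0561), and that of Rela in each fit that left out a library other than the first at 100 µg/ml (adjusted p 0.0578 to 0.153). Between the doses, the call of Maf was lost without the first or second library at 10 µg/ml or the third at 100 µg/ml (adjusted p 0.0682 to 0.0823).

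Across the 9 libraries the C1q chains went together, with Pearson r of log2(FPKM + 1) of 0.958 for C1qa and C1qb, 0.973 for C1qa and C1qc and 0.961 for C1qb and C1qc. C3 had r of 0.439 to 0.655 with the chains and Cfp 0.522 to 0.569. Over the 8 libraries without the first at 100 µg/ml, the chains had r of 0.972 to 0.980 with each other, C3 0.616 to 0.751 with the chains and Cfp 0.618 to 0.672. Of 11156 other genes tested, the 5 with the highest r with the mean of the 3 chains over the 9 libraries were Rab32 (0.984), Marco (0.984), Sash3 (0.981), Tmem14c (0.978) and Saa3 (0.977). These r values share the libraries, their length bias and the difference between groups, and are a description. Marco, a scavenger receptor, was at 96.8 ± 5.004 FPKM in control cells, 82.4 ± 3.20 FPKM at 10 µg/ml and 50.3 ± 8.03 FPKM at 100 µg/ml. Saa3, an acute-phase protein, was at 357 ± 28.7, 331.6 ± 31.3 and 228.4 ± 36.0 FPKM. At 100 µg/ml against control, the log2 differences were -0.94 for Marco and -0.65 for Saa3. Without the first library at 100 µg/ml they were -1.05 and -0.77.

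The genes on either side of the C1q cluster, taken by position, did not pass the test at 100 µg/ml. Of the 4 nearest genes tested, Zbtb40, 80929 bp away, was at 12.6 ± 0.443 FPKM in control cells and 10.96 ± 1.999 FPKM at 100 µg/ml (log2 difference -0.20, SE 0.12, adjusted p = 0.407). Kdm1a, 277406 bp away on the other side, was at 38.2 ± 2.06 and 34.99 ± 3.001 FPKM (-0.12, SE 0.07, adjusted p = 0.372).

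Of the 9 markers of microglia and macrophages that were tested, 1 passed at 100 µg/ml against control, beside 2.11% of all genes. These markers were likewise listed with earlier results of these data known, so the call and its p-value are descriptions. The fitted differences of all 9 were below 0, with a range of -0.67 to -0.03 on the log2 scale. Their median was -0.20, beside 0 over all genes. The marker that passed was Emr1 (Adgre1, the F4/80 antigen), which was at 199.3, 207.8 and 200.4 FPKM in control cells, 192.1, 193.0 and 189.3 FPKM at 10 µg/ml and 116.8, 132.8 and 131.5 FPKM at 100 µg/ml (adjusted p = 0.00224). Its log2 difference was -0.67 (SE 0.06), and -0.61 (SE 0.035) without the first library at 100 µg/ml. That of Itgam went from -0.20 to -0.05 without this library. The 11 markers summed to 1202 to 1385 FPKM in control cells, 1215 to 1292 FPKM at 10 µg/ml and 1096 to 1227 FPKM at 100 µg/ml. The part of this in the lower C1q and C3 levels was not tested, and in RNA of whole cultures fewer expressing cells and less RNA per cell cannot be told apart.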

How the data were processed

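The RNA of 9 BV2 libraries was used, grouped by the treatment in their labels, with 3 per group. The authors made the libraries with a stranded kit after oligo(dT) selection, aligned reads with TopHat and deposited FPKM from Cufflinks 2.1.1 with Ensembl genes (GRCm38). No counts were used, and 0 columns of values were left unused. FPKM + 1 was log2 transformed, and genes averaging 1 FPKM or more were fitted with limma 3.58.1 (R 4.3.3, trend option of eBayes, Benjamini-Hochberg adjustment over 11161 genes), with the 3 groups in a single fit. The design assumed this unit. The procedure was tested on simulated data. Tables and plots were made with Python 3.11.15, pandas 2.3.3, numpy 2.4.6 and matplotlib 3.10.9. Transcript lengths came from GENCODE, with the longest protein-coding transcript of each gene. Depth was estimated from FPKM steps, as the value that brought the low values of a library nearest to whole fragments. Of 2240 low values, 74.3% were then whole to within 0.25 fragments. The 50% of evenly spread values is no test of this, because the depth was chosen on the same values. Fragment numbers are therefore approximate and cover counting error only.

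The 9 genes and all lists were chosen with earlier results of these data known. The text names all 9 genes, genes of the complement and transcription factor lists that passed an adjusted p of 0.05 in any comparison, the gene with the highest mean FPKM in a role, and the 5 genes most correlated with C1q, except for a gene that is not reported here. The replicate numbers of the labels were not used to pair the libraries in the main fit. Deviations of same-numbered libraries had r of -0.088 to 0.153, and 1 of 9 pairs was over 0.1. With 3 libraries per group, these values cannot exclude a pairing. Alternatives were pseudocounts of 0.1 and 0.01, no filter, a filter at 5 FPKM, quantile and median-of-ratios scaling, no trend in eBayes, a replicate block, a fit of the 6 libraries compared alone, each library left out, and a loess length correction (span 0.5) added after seeing the data. A listed transcription factor and 1 neuron marker were not analysed here.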

Additional observations from a re-analysis of the deposited data

How the results depend on the processing

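All 5 complement genes tested kept the direction of their fitted differences at 100 µg/ml under all 19 alternatives, against control and between the doses. The number of the 5 that passed against control (2) was 3, with C1qb added, under quantile or median-of-ratios scaling. It was 4 with the length correction, 0 with only the 6 libraries compared and 0 to 3 when a library was left out. Between the doses (2) it was 4 with the length correction, 1 without the trend, 0 without a filter, with the 6 libraries or with the replicate block, and 0 to 3 when a library was left out. At 10 µg/ml it was 0 throughout. Of the 15 pathway genes, the 2 that passed against control became 3, with Cd59a, at pseudocounts of 0.1 and 0.01, under quantile scaling and with the length correction, 1 without a filter or with the replicate block, 0 with the 6 libraries and 0 to 2 when a library was left out. Without the trend Cd59a passed in place of Itgb2. The calls of Cd59a give no support, since it entered the test only through its higher values in treated cells. Between the doses, where none of the 15 passed, 2 passed with the length correction and 0 to 1 when a library was left out. The cause of these changes was not tested.

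Over all genes, the 236 calls at 100 µg/ml against control became 106 with the replicate block, 847 with the length correction, 22 with the 6 libraries and 31 to 539 when a library was left out, and the 95 between the doses became 13, 366, 6 and 8 to 191. At 10 µg/ml the 0 calls became 4 without a filter and at most 2 in the other fits. Of the single genes, the replicate block ended the calls of Itgb2 and Rela against control (adjusted p = 0.0999 and 0.0864) and of Maf between the doses (0.0516). With only the 6 libraries compared, C3ar1, Itgb2, Maf and Rela no longer passed against control (adjusted p = 0.076, 0.0801, 0.0558 and 0.112). Depth limits Cfb and Serping1, at an estimated 15.7 and 7.2 fragments or fewer, for which no difference could be seen.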
